A study of Mus musculus with 10 samples.

Results

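The mRNA levels of 8 genes linked to atrial identity were followed through whole hearts of E10.5 mouse embryos with and without the coxsackie and adenovirus receptor (CAR). The genes are Nr2f1 and Nr2f2, which encode the transcription factors COUP-TFI and COUP-TFII, and Kcna5, Stard10, Dkk3, Sln, Angpt1 and Cav1. Members were chosen by symbol: a row of the array table counted for a gene when its annotation named that gene and no other, and each of the 8 genes had exactly 1 such row. They are 8 of 19938 genes with a row of their own.

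COUP-TFs are orphan nuclear receptors that bind DNA as dimers, commonly at repeats of the half-site AGGTCA. In the embryonic mouse heart Nr2f2 is made in atrial cardiomyocytes and in venous endothelium, and its loss in the myocardium gives atria features of ventricles. The atria and the sinus venosus, the inflow tract that feeds them, differ from the ventricles in ion channels, calcium handling proteins and secreted factors, among them the potassium channel of Kcna5 and the calcium pump inhibitor of Sln.

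Each sample was total RNA of 3 pooled hearts, and 5 WT and 5 CAR KO samples were hybridised to Affymetrix Mouse Gene 1.0 ST arrays, so 15 hearts stood behind each genotype. All embryos came from matings of CAR +/- mice of the line B6.Cg-Cxadr tm1/Fgr, and none was treated. CAR KO embryos lack the receptor in every cell, not only in the heart, and they die before birth, soon after the stage sampled. The labels do not say which samples share a litter, so p-values measure the spread between these samples, which may be partly technical. Values are log2 signals as deposited, on which a difference of 1 is a doubling.

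Cxadr, the gene of CAR (chr16:78301226-78359785 in GRCm38.p6), checked the genotype labels. Its log2 signals were 8.28, 8.25, 8.46, 8.66 and 8.24 in WT samples 1 to 5 and 6.69, 6.56, 6.37, 6.47 and 6.23 in CAR KO samples 1 to 5. All CAR KO samples lay below all WT samples, and the level fell by 1.91 ± 0.10 (SE) on the log2 scale (limma, adjusted p = 1.40e-05). Correlations between samples over all clusters ran from 0.987 to 0.998. Transcripts of liver and yolk sac, which are not heart tissues, differed between samples. The mean of 15 such genes lay between 7.35 and 8.96 among WT samples, between 6.92 and 9.79 among CAR KO samples, and was highest in CAR KO 5, WT 5 and WT 2. Atria and ventricles were not separated, so whether the 8 genes were expressed more in atria was not measured here. Signals of different probe sets cannot be ranked, so no difference in level between genes is given as a result.

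Promoter windows from RefSeq (GRCm38.p6) were held for 5 of the 8 genes, Nr2f1, Nr2f2, Kcna5, Stard10 and Cav1. Dkk3, Sln and Angpt1 have no entry there. The windows below are the 250 bases before an annotated start of the COUP-TF genes and of Stard10 and Cav1, shown because these are the 4 genes that correlated over all 10 samples with the sinus venosus markers described later. Capitals mark matches, on either strand, to any of 3 short motifs, none of which overlap here. The first is the TATA box, searched as TATAAA. Another is the box with the letters CCAAT. The last is the core bound by Sp1-type factors, written GGGCGG and called a GC box.
Nr2f1, chr13:78198874-78199123, minus strand: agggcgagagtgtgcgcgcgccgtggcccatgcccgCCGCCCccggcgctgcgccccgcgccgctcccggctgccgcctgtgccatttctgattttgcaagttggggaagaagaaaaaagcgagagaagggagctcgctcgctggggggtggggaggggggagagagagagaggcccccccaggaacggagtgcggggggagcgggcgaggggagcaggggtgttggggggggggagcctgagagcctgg
Nr2f2, chr7:70366747-70366996, minus strand: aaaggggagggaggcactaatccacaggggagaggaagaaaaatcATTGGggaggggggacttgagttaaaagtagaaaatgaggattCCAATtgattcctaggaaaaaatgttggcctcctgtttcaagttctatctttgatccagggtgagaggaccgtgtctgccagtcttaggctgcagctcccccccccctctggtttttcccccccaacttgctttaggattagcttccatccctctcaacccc
Stard10, chr7:101316836-101317085, plus strand: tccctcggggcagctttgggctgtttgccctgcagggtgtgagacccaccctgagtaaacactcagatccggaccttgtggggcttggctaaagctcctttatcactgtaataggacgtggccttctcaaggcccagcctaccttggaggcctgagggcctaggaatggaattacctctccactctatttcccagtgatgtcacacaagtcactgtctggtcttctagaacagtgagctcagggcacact
Cav1, chr6:17306085-17306334, plus strand: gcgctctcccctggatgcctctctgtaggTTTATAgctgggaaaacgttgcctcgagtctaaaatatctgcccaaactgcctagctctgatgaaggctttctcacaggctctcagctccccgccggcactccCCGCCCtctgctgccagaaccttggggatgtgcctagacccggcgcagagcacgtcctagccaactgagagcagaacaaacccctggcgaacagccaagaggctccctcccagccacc
The Nr2f1 window held 1 GC box, the Nr2f2 window held 2 CCAAT boxes, and the Cav1 window held 1 TATA box and 1 GC box. The Stard10 and Kcna5 windows held no match. Among all 32851 RefSeq windows of the same length, 12.4% held TATAAA, 33.8% CCAAT and 32.7% GGGCGG. The half-site AGGTCA was in 0 of the 7 windows of the 5 genes and in 14.0% of all windows. A match is a description of the letters, and its absence says only that they are not in this window. The GC content of the windows shown was 72% for Nr2f1, 50% for Nr2f2, 54.4% for Stard10 and 59.6% for Cav1, against a median of 52.4% over all windows.

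The question asked of the CAR KO was whether levels of these genes differed from WT. They did not pass the test: 0 of the 8 genes had a limma adjusted p under 0.05, as against 0.00345% of the 28944 clusters tested, which was the cluster of Cxadr alone. At an unadjusted p under 0.05, again 0 of 8 passed, against 2.40% of all clusters. The genotypes overlapped for all 8 genes, whereas 0.359% of all clusters showed no overlap. The mean was higher in CAR KO for 7 of 8 genes, with Nr2f1 the exception, and 56.1% of all clusters were higher in CAR KO. The median difference over the 8 genes was 0.11, against 0.011 over all clusters. These directions were not stable: with array weights 4 of 8 genes were higher in CAR KO and the median was 0.018, and without CAR KO 2 the median was -0.008. In bulk samples, fewer cells of a type and less RNA per cell cannot be told apart.

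**Figure D1:**
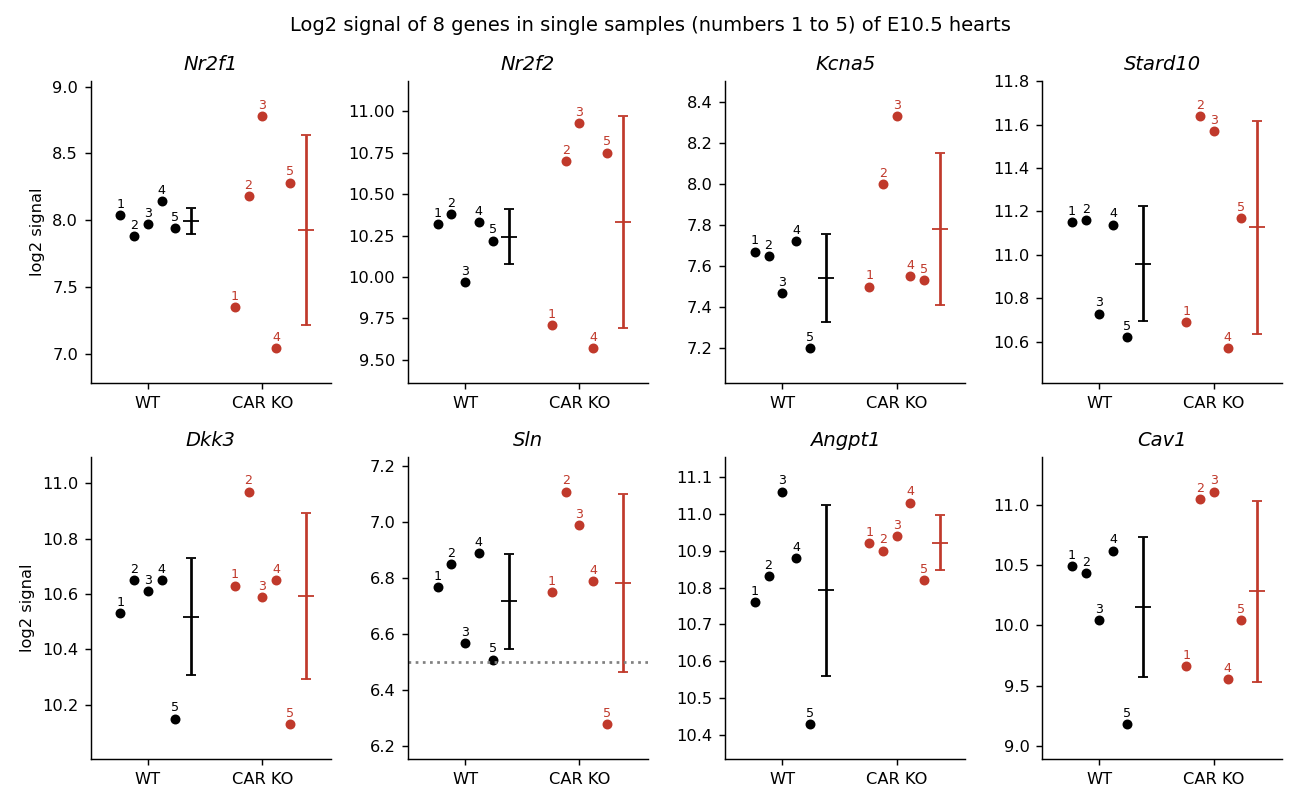
Log2 signal of each gene in the 5 WT (black) and 5 CAR KO (red) samples, with sample numbers beside the points and bars for the mean ± SD of each genotype. The vertical scale differs between panels, and the dotted line in the Sln panel is the background level of 6.503. The CAR KO samples of Nr2f1 and Nr2f2 lie on both sides of a narrow WT group.

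Nr2f1 (chr13:78188971-78198873) encodes COUP-TFI. Its log2 signal was 8.04, 7.88, 7.97, 8.14 and 7.94 in WT samples 1 to 5. In CAR KO samples 1 to 5 it was 7.35, 8.18, 8.78, 7.04 and 8.28. The WT samples lay together, CAR KO 1 and 4 lay below all of them, and CAR KO 2, 3 and 5 lay above all of them. The means were 7.99 ± 0.10 in WT and 7.93 ± 0.71 in CAR KO (SD, n = 5 each). The difference was -0.07 (95% interval -0.66 to 0.52; limma adjusted p = 1.0), or -36.6% to 43.7%.

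Nr2f2 (chr7:70351946-70366746) encodes COUP-TFII, the COUP-TF best known for atrial identity. In WT samples 1 to 5 the log2 signal was 10.32, 10.38, 9.97, 10.33 and 10.22. In CAR KO samples 1 to 5 it was 9.71, 10.70, 10.93, 9.57 and 10.75. The order of the CAR KO samples was that of Nr2f1: 1 and 4 lay below all WT samples, and 2, 3 and 5 above. The means were 10.24 ± 0.16 and 10.33 ± 0.64 (SD, n = 5 each). The difference was 0.09 (95% interval -0.45 to 0.63; limma adjusted p = 1.0), or -27.0% to 54.8%.

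The spread between CAR KO samples of these COUP-TF genes stood out beside that in WT. For Nr2f1 the range was 0.26 in WT (1.19-fold) and 1.74 in CAR KO (3.34-fold), and the SD in CAR KO was 7.24 times that in WT. A ratio at least as large was found in 0.429% of the 14688 genes above background. For Nr2f2 the range was 0.41 (1.33-fold) and 1.36 (2.57-fold), the SD ratio 3.91, and 3.23% of genes had a ratio at least as large. Leaving out any 1 sample kept the ratio at 6.0 or above for Nr2f1 and between 3.36 (without CAR KO 4) and 9.42 (without WT 3) for Nr2f2. No test was made of this spread, which was seen in the data and then described, and with 5 samples a genotype an SD is itself imprecise.

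Across the 8 genes the SD was higher in CAR KO for 7 and lower for Angpt1, at a ratio of 0.327. A higher SD in CAR KO was general on these arrays: 65.1% of genes above background had one, and the median ratio was 1.25. A ratio of at least 2 was found for 2 of 8 genes, both COUP-TFs, and for 21.2% of genes above background. For Kcna5, Stard10, Dkk3, Sln and Cav1 the ratio lay between 1.28 and 1.88. Without WT 5 these ratios rose to 3.33 for Kcna5, 2.34 for Stard10, 5.28 for Dkk3, 2.22 for Sln and 3.00 for Cav1, so which genes reach 2 rests on that sample. They were as low as 1.11 for Kcna5 without CAR KO 3, and 0.838 for Dkk3 and 0.985 for Sln without CAR KO 5. That of Angpt1 ran from 0.225 without CAR KO 4 to 0.582 without WT 5.

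**Figure D2:**
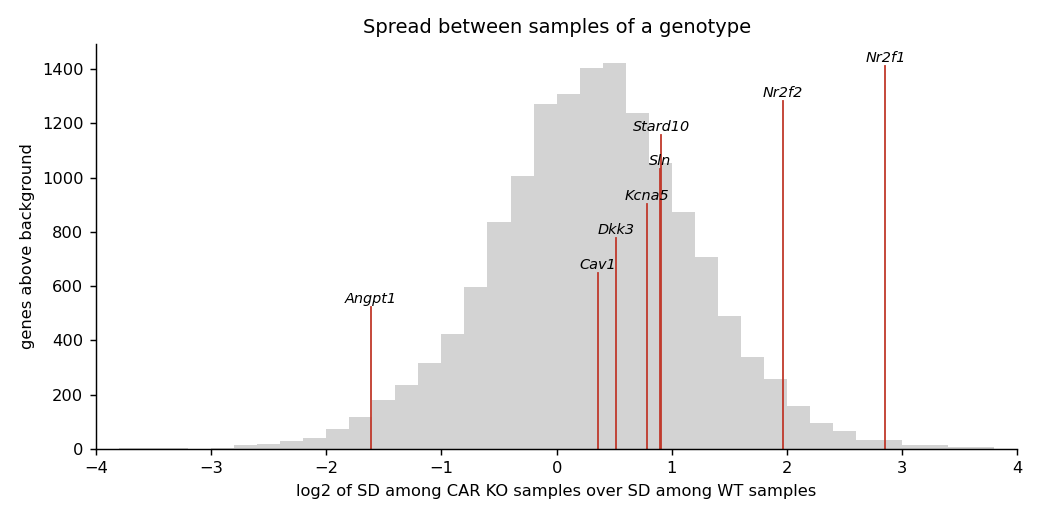
Histogram over 14688 genes above background of the log2 ratio of the SD among CAR KO samples to the SD among WT samples (horizontal axis), with the number of genes on the vertical axis. Red lines mark the 8 genes, and their heights only keep the names apart. Nr2f1 and Nr2f2, with ratios of 7.24 and 3.91, lie in the right tail and Angpt1, at 0.327, in the left.

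Kcna5 (chr6:126532551-126535555) encodes Kv1.5, the voltage-gated potassium channel of the ultrarapid delayed rectifier current of atrial cells. Its log2 signal was 7.67, 7.65, 7.47, 7.72 and 7.20 in WT samples 1 to 5 and 7.5, 8.0, 8.33, 7.55 and 7.53 in CAR KO samples 1 to 5. CAR KO 2 and 3 lay above all WT samples, the other CAR KO samples lay within the WT range, and WT 5 was lowest. The means were 7.54 ± 0.21 and 7.78 ± 0.37 (SD, n = 5 each). The difference of 0.24 (95% interval -0.12 to 0.60; limma adjusted p = 1.0), or -7.82% to 51.3%, was the largest in size of the 8 genes in this fit. Genotype accounted for 16.6% of its variance, and the exact permutation test gave a 2-sided p = 0.27.

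Sln (chr9:53850251-53853849) encodes sarcolipin, a small membrane protein that inhibits the SERCA calcium pump and is made in mouse atria. Log2 signals were 6.77, 6.85, 6.57, 6.89 and 6.51 in WT samples and 6.75, 7.11, 6.99, 6.79 and 6.28 in CAR KO samples. These values lie close to the background of 6.503, which 9 of 10 samples exceeded and CAR KO 5 did not. The means were 6.72 ± 0.17 and 6.78 ± 0.32 (SD, n = 5 each), with a difference of 0.07 (95% interval -0.24 to 0.37; limma adjusted p = 1.0). Near background, array signals understate differences.

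Stard10 (chr7:101317086-101346626) encodes a START domain protein that carries phospholipids between membranes. The WT samples read 11.15, 11.16, 10.73, 11.14 and 10.62 on the log2 scale, and the CAR KO samples 10.69, 11.64, 11.57, 10.57 and 11.17. CAR KO 2, 3 and 5 were above all WT samples, CAR KO 5 only barely so, CAR KO 4 was below all, and WT 3 and 5 were low among WT. The means were 10.96 ± 0.26 and 11.13 ± 0.49 (SD, n = 5 each), with a difference of 0.17 (95% interval -0.29 to 0.63; limma adjusted p = 1.0), or -18.3% to 54.6%.

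Cav1 (chr6:17306335-17341328) encodes caveolin-1, the coat protein of caveolae in endothelium and several other cell types. WT log2 signals of Cav1 were 10.49, 10.43, 10.04, 10.62 and 9.18, and those in CAR KO were 9.66, 11.05, 11.11, 9.55 and 10.04. It varied widely in both genotypes, over 2.71-fold in WT and 2.95-fold in CAR KO, with WT 5 lowest and CAR KO 2 and 3 above all WT samples. The means were 10.15 ± 0.59 and 10.28 ± 0.75 (SD, n = 5 each), with a difference of 0.13 (95% interval -0.65 to 0.91; limma adjusted p = 1.0), or -36.1% to 87.9%. Of the 8 intervals this was the widest.

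Dkk3 (chr7:112116019-112159482) encodes a secreted glycoprotein of the Dickkopf family, whose other members block Wnt co-receptors. Its log2 signal was 10.53, 10.65, 10.61, 10.65 and 10.15 in WT samples and 10.63, 10.97, 10.59, 10.65 and 10.13 in CAR KO samples. Sample 5 of each genotype was lowest, CAR KO 2 was highest, and the rest lay between 10.53 and 10.65. The means were 10.52 ± 0.21 and 10.59 ± 0.30 (SD, n = 5 each), with a difference of 0.08 (95% interval -0.24 to 0.39; limma adjusted p = 1.0). WT 5 and CAR KO 5 were also lowest of their genotypes in the mean of 8 cardiomyocyte genes, at 12.22 and 12.23, and highest in the liver and yolk sac mean, at 8.96 and 9.79. WT 2 lay close to WT 5 in the liver and yolk sac mean, at 8.91, and had the highest Dkk3 signal of WT. With the liver and yolk sac mean Dkk3 had r = -0.64 (permutation p = 0.0503, adjusted 0.225), and 0.09 without WT 5 and CAR KO 5. Sln had r = -0.68 with that mean (adjusted permutation p = 0.17) and Kcna5 -0.55 (0.339), and none of the 8 genes passed. With that mean as a covariate the Dkk3 difference was 0.06, against 0.077. Whether these transcripts lowered the Dkk3 values was not tested.

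Angpt1 (chr15:42424667-42676977) encodes angiopoietin-1, the ligand of the Tie2 receptor (gene Tek) that the myocardium supplies to the endocardium. Signals on the log2 scale were 10.76, 10.83, 11.06, 10.88 and 10.43 in WT samples and 10.92, 10.90, 10.94, 11.03 and 10.82 in CAR KO samples. The CAR KO samples lay close together, within the WT range. The means were 10.79 ± 0.23 and 10.92 ± 0.08 (SD, n = 5 each), with a difference of 0.13 (95% interval -0.09 to 0.35; limma adjusted p = 1.0), or -5.84% to 27.5%.

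Missing the threshold is no sign of equal levels, so it was asked which intervals left no room for 1.5-fold up or down. Those of Dkk3, Sln and Angpt1 lay within it, 3 of 8, against 97.3% of all clusters and 97.1% of genes above background. The Sln signal lay near background, where differences are understated, so its narrow interval does not bound the change in its mRNA. The count became 5 with array weights, 5 without WT 5 or without CAR KO 3, and 6 without CAR KO 2. With dim clusters dropped, Sln among them, it was 2 of 7. For Nr2f2, Kcna5 and Stard10 the interval reached past 1.5-fold upward only, for Nr2f1 downward only, and for Cav1 both ways. In those directions a change of that size was not resolvable with these samples. The SDs of these 5 genes in CAR KO ran from 0.37 to 0.75, against 0.08 to 0.32 for Dkk3, Sln and Angpt1.

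**Figure D3:**
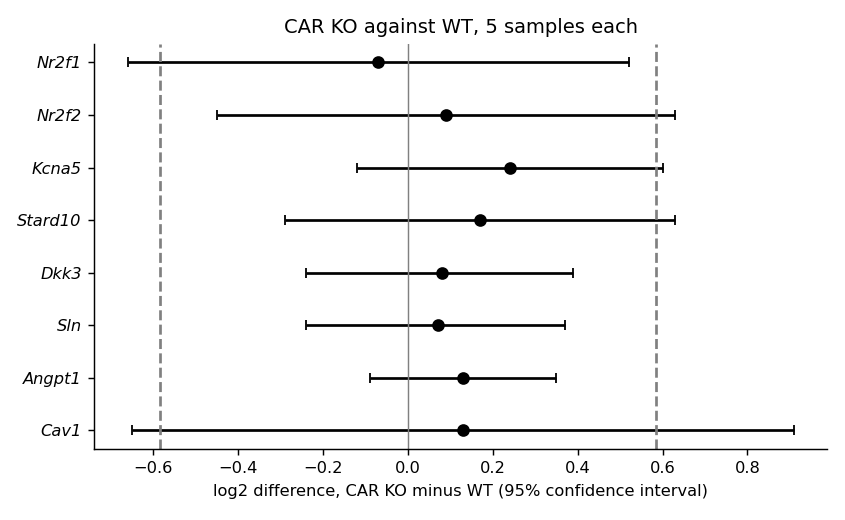
Difference CAR KO minus WT on the log2 scale (horizontal axis) for each gene, as point and 95% confidence interval from limma, with dashed lines at 1.5-fold in either direction. The solid line is 0. All 8 intervals hold 0, and those of Dkk3, Sln and Angpt1 stay between the dashed lines. Sln signals lie near background, where differences are understated.

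Most of the variance lay between samples of a genotype: genotype accounted for 0.546% (Nr2f1) to 16.6% (Kcna5) of it. The same few samples were high or low for several genes. WT 5 was lowest of WT for 6 of 8 genes (Kcna5, Stard10, Dkk3, Sln, Angpt1 and Cav1). CAR KO 4 was lowest of its genotype for Nr2f1, Nr2f2, Stard10 and Cav1, and highest for Angpt1. CAR KO 3 was highest for Nr2f1, Nr2f2, Kcna5 and Cav1, and CAR KO 2 for Stard10, Dkk3 and Sln. The mean of the 8 genes ran from 9.03 in WT 5 to 9.90 in CAR KO 3.

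Of the 28 pairs of genes, 24 correlated positively over the 10 samples, and for 7 Pearson's r passed a permutation test after adjustment over the 28 pairs. Without CAR KO 5 that number was 13. With values centred within genotype 6 passed, and by Spearman's rho 6. The genes were picked with earlier results of these data known, so the p-values describe the samples at hand.

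Nr2f1 and Nr2f2 rose and fell together, with r = 0.93 and rho = 0.87 (permutation p = 4.00e-05 and 0.00207, adjusted 0.00112 and 0.0145). Centred within genotype r was 0.94, and without CAR KO 3 and 4, the samples farthest from the Nr2f1 median, it was 0.86. Of 14687 other genes above background, Nr2f1 was the one most correlated with Nr2f2 on centred values, and Nr2f2 ranked 3 for Nr2f1. Most of the shared range came from the CAR KO samples, since the WT samples spanned only 0.26 and 0.41. The 2 genes are paralogs, and whether probes for one bind transcripts of the other was not tested.

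Stard10 and Cav1 also moved together in both genotypes (r = 0.93, rho = 0.85, permutation p = 0.00012 and 0.00284, adjusted 0.00112 and 0.0159), and r was 0.92 without CAR KO 4 and WT 5. Kcna5 followed Cav1 (r = 0.90, rho = 0.92, permutation p = 0.0001 and 0.00061, adjusted 0.00112 and 0.00854), and r was 0.87 without CAR KO 3 and WT 5. Among 14687 genes Cav1 ranked 2 for Stard10 and 3 for Kcna5 on centred values, and Kcna5 and Stard10 ranked 3 and 4 for Cav1. Kcna5 and Stard10 gave r = 0.85 and rho = 0.70 (permutation p = 0.00082 and 0.0313, adjusted 0.00574 and 0.0797), so the rank correlation missed the threshold.

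Stard10 passed with both COUP-TFs as well as with Cav1 and Kcna5. With Nr2f2 its r was 0.88 and rho 0.92 (permutation p = 0.00137 and 0.00049, adjusted 0.00639 and 0.00854), and r was 0.84 without CAR KO 1 and 4. With Nr2f1 its r was 0.77 and rho 0.81 (permutation p = 0.00753 and 0.00716, adjusted 0.0301 and 0.0334), but the adjusted p was 0.154 on centred values and r fell to 0.61 without CAR KO 3 and 4. Nr2f2 with Cav1 gave r = 0.71 (permutation p = 0.0228, adjusted 0.071), and r = 0.99 without the 3 samples richest in liver and yolk sac transcripts. Nr2f2 with Kcna5 gave r = 0.62 (permutation p = 0.0519, adjusted 0.121) and 0.90 without those 3 samples. Leaving them out moved r in both directions. It fell from 0.87 to 0.65 for Dkk3 with Sln, from 0.34 to -0.44 for Angpt1 with Cav1, and from 0.32 to -0.34 for Sln with Angpt1. The r without those samples are given without a p.

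Dkk3 and Sln gave r = 0.87 and rho = 0.72 (permutation p = 0.00122 and 0.0224, adjusted 0.00639 and 0.0628). Without WT 5 and CAR KO 5, the lowest samples of both genes, r was 0.65, so the relation rests in part on them. Sln also went with Kcna5, where r = 0.73 missed the threshold and rho = 0.88 passed (permutation p = 0.0188 and 0.00158, adjusted 0.0659 and 0.0145), and with Cav1 it gave r = 0.67 and rho = 0.75 (adjusted permutation p = 0.0838 and 0.0556). On centred values Sln ranked 401 among 14687 genes for Dkk3, and 173 genes had r over 0.9 with Dkk3, against 9 with Nr2f1 and 6 with Nr2f2. The COUP-TFs gave values near or below 0 with Dkk3 (r = -0.13 for Nr2f1 and -0.09 for Nr2f2) and with Angpt1 (r = -0.17 and -0.21). Angpt1 passed with no other gene: its highest r was 0.61 with Dkk3 (permutation p = 0.0764, adjusted 0.153), which was 0.07 without WT 5 and CAR KO 5.

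**Figure D4:**
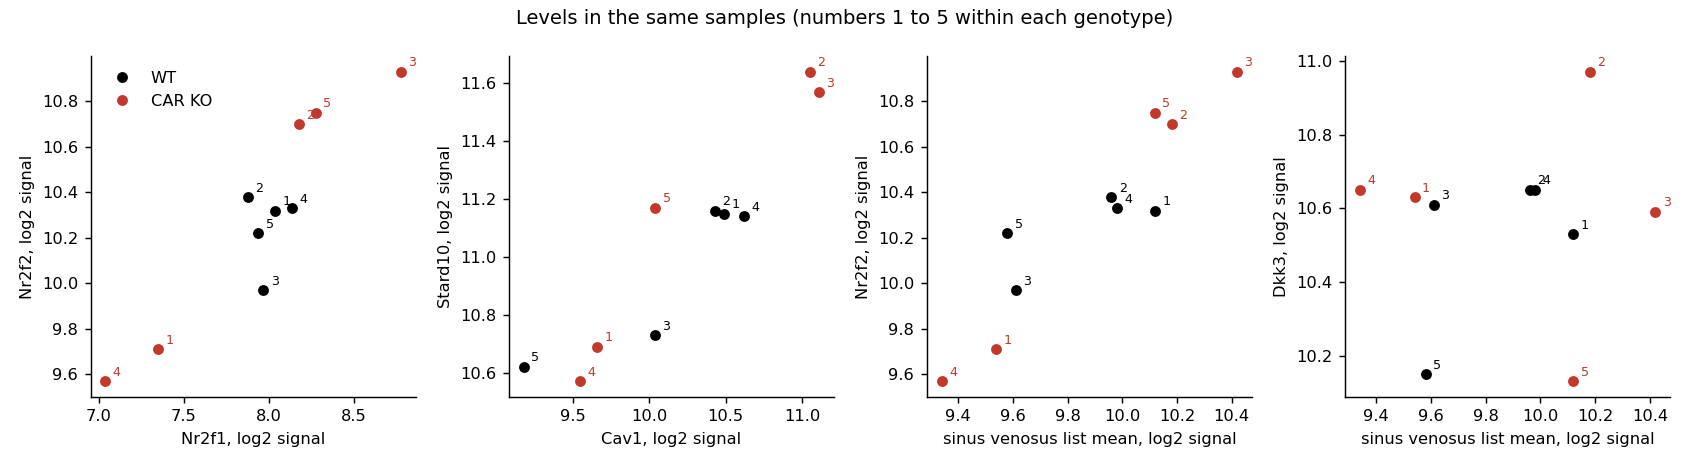
Log2 signals of pairs of genes, and of Nr2f2 and Dkk3 against the mean of 6 sinus venosus marker genes, in the same samples (black WT, red CAR KO, numbered within genotype). Nr2f2 rises with Nr2f1 (r = 0.93), Stard10 with Cav1 (r = 0.93) and Nr2f2 with the sinus venosus mean (r = 0.94), while Dkk3 does not (r = 0.10).

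Marker lists of 11 tissues and cell types were then set beside the genes, which gave 88 relations of gene and list mean. Of these 7 passed for r after adjustment over the 88, 5 for rho and 0 on centred values. The sinus venosus list (Shox2, Tbx18, Isl1, Hcn4, Tbx3 and Vsnl1, known for inflow and pacemaker myocardium) followed 4 of the genes. Its mean lay between 9.58 and 10.12 in WT and between 9.34 (CAR KO 4) and 10.42 (CAR KO 3) in CAR KO, so the genotypes overlapped.

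Nr2f2 had r = 0.94 and rho = 0.93 with the sinus venosus mean (permutation p = 4.00e-05 and 0.00037, adjusted 0.00352 and 0.0109), and Stard10 had r = 0.94 and rho = 0.94 (permutation p = 8.00e-05 and 0.00021, adjusted 0.00352 and 0.00924). Nr2f1 had r = 0.88 and rho = 0.94 (permutation p = 0.00014 and 0.00017, adjusted 0.00411 and 0.00924), and Cav1 had r = 0.86 and rho = 0.88 (permutation p = 0.00173 and 0.00156, adjusted 0.0233 and 0.0275). On centred values r was 0.93, 0.95, 0.90 and 0.86 in the same order, but the adjusted permutation p was 0.0509, 0.0509, 0.0843 and 0.0866, above the threshold. Without CAR KO 3 and 4, the samples farthest from the median of the list mean, r was 0.86 for Nr2f2, 0.92 for Stard10, 0.72 for Nr2f1 and 0.80 for Cav1. For Kcna5 r was 0.76 (permutation p = 0.00651, adjusted 0.0707), while for Dkk3 it was 0.10, for Sln 0.33 and for Angpt1 -0.03.

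Vsnl1, a calcium sensor gene marking the sinus node, varied most in this list (SD 1.05 in WT and 1.42 in CAR KO) and weighs heavily in its mean. With the mean of the other 5 genes, r was 0.93 for Nr2f2, 0.90 for Nr2f1, 0.84 for Stard10 and 0.70 for Cav1, an alternative chosen after the data were seen. Without CAR KO 3 and 4 these r were 0.86, 0.70, 0.74 and 0.49, so for Cav1 the relation to the list rests largely on Vsnl1 and those samples. All 6 genes of the list correlated positively with Nr2f1 and with Nr2f2, from 0.10 for Isl1 to 0.86 for Shox2 with Nr2f2. With Stard10 and with Cav1 4 of the 6 were positive: Vsnl1 was highest, with r = 0.95 and 0.92, and Isl1 lowest, with r = -0.20 and -0.39. How much inflow tissue each pool of hearts held was not measured, and its part in these relations was not tested.

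The atrial myocardium list, 10 of whose 11 measured genes were above background, followed Sln, Kcna5 and Cav1. Its mean ran from 10.68 in WT 5 to 11.28 in CAR KO 2. Sln had r = 0.88 and rho = 0.83 with it (permutation p = 0.00102 and 0.00497, adjusted 0.0224 and 0.0629), Kcna5 r = 0.87 and rho = 0.83 (permutation p = 0.00164 and 0.005, adjusted 0.0233 and 0.0629), and Cav1 r = 0.85 and rho = 0.89 (permutation p = 0.00185 and 0.00098, adjusted 0.0233 and 0.0216). Without WT 5 and CAR KO 2 these r were 0.83, 0.81 and 0.72. Dkk3 had r = 0.84 (adjusted permutation p = 0.0707) and Stard10 0.71 (0.12), whereas the COUP-TFs had 0.37 (Nr2f1) and 0.36 (Nr2f2). Without the 3 samples richest in liver and yolk sac transcripts these last r were 0.78 and 0.91. For Angpt1 that step took r from 0.51 to -0.19. Over all samples each of the 10 atrial genes correlated positively with Sln, Kcna5 and Cav1. With Sln 8 of the 10 had r over 0.5, and with Kcna5 and with Cav1 5 did. The extremes were Gja5 (0.86) and Tbx5 (0.05) with Sln, Fgf12 (0.91) and Nppa (0.29) with Kcna5, and Fgf12 (0.88) and Hey1 (0.16) with Cav1. With the mean of 10 ventricular genes r was -0.64 for Nr2f2 and -0.53 for Nr2f1 (adjusted permutation p = 0.183 and 0.385). Dkk3 (0.68), Sln (0.54) and Angpt1 (0.3) had positive r, and no member passed. Without CAR KO 3 and 5, the samples farthest from the median of that mean, r was 0.96 for Angpt1 and 0.58 for Dkk3. For Sln it was then 0.17, for Nr2f2 -0.51 and for Nr2f1 -0.44. On centred values r for Angpt1 was 0.50 (permutation p = 0.00458, adjusted 0.0843). Without the liver-rich samples r was -0.81 for Nr2f2, -0.77 for Nr2f1, -0.90 for Kcna5, -0.57 for Sln, 0.13 for Dkk3 and 0.38 for Angpt1.

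Dkk3 and Sln had the highest r with the general cardiomyocyte list, and neither passed. Dkk3 had r = 0.84 with the mean of 8 cardiomyocyte genes (adjusted permutation p = 0.0877) and 0.03 without WT 5 and CAR KO 5, where that mean was lowest. Sln had r = 0.75 (adjusted permutation p = 0.111) and 0.13 without them. For Nr2f1 and Nr2f2 r with the cardiomyocyte mean was -0.20 and -0.24. Dkk3 was about as close to the endothelium and endocardium list, with r = 0.78 and rho = 0.75 (adjusted permutation p = 0.0889 and 0.168). Its rho with the cardiomyocyte list was 0.36. Without WT 5 and CAR KO 5 its r with the endothelium and endocardium list was 0.07. Sln had r = 0.63 with that list over all samples. Cav1 had r = 0.11 and rho = -0.16 with it, and r = -0.71 without WT 5 and CAR KO 5. With the venous and lymphatic endothelium list, another site of Nr2f2 expression, r was 0.58 for Nr2f2 and 0.51 for Nr2f1, and neither passed. Without CAR KO 4 and 5 these r were 0.13 and 0.06. The genes of that list went both ways, from 0.74 (Aplnr) to -0.66 (Ephb4) with Nr2f2 and from 0.65 to -0.67 with Nr2f1. With the endothelium and endocardium list r was -0.55 for Nr2f2 and -0.49 for Nr2f1, and 0 of its 10 genes correlated positively with either.

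**Figure D5:**
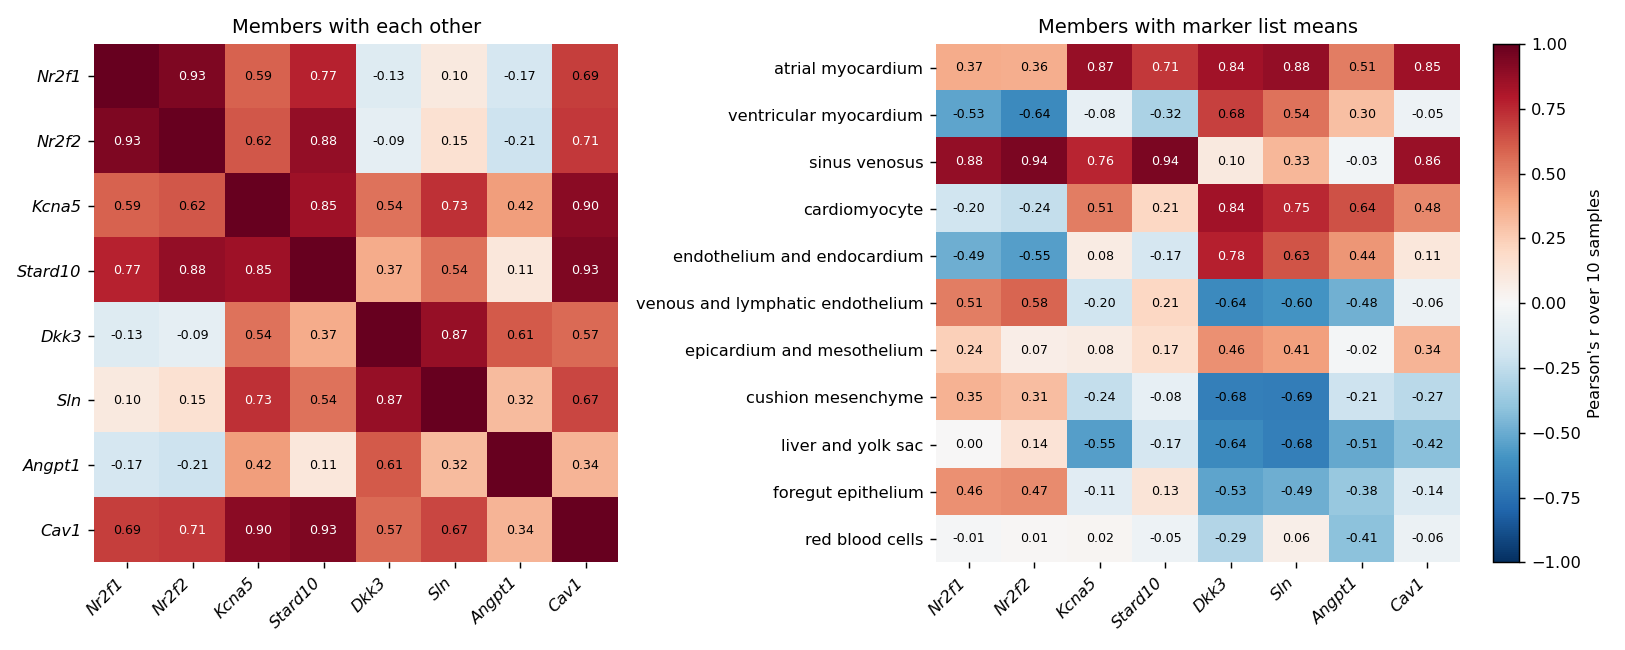
Pearson's r over the 10 samples between the 8 genes (left) and between each gene and the mean of each marker list (right), with colour and printed value giving r from -1 (blue) to 1 (red). Nr2f1, Nr2f2, Stard10 and Cav1 share high values with the sinus venosus list, 0.86 to 0.94, and Kcna5, Sln and Cav1 with the atrial list, 0.85 to 0.88.

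The genes most like each member on centred values, over the 10 samples, were named by rank alone. For Nr2f1 they were Pkig (r = 0.96), Plcb1 (0.95) and Nr2f2 (0.94), and for Nr2f2 they were Nr2f1 (0.94), Smoc2 (0.94) and Sgk1 (0.92). For Kcna5 they were Zeb2os (0.95), Ap3b2 (0.94) and Cav1 (0.94), for Cav1 Slc17a7 (0.96), Ap3b2 (0.95) and Kcna5 (0.94), and for Stard10 Vsnl1 (0.96), Cav1 (0.94) and Calcr (0.93). Other members thus stood among the nearest 3 of 14687 genes for Nr2f1, Nr2f2, Kcna5, Stard10 and Cav1. For Dkk3 the nearest were Pkp4 (1.0), Serpinh1 (0.99) and Pdk4 (0.98), for Sln Pde1c, Cpeb1 and Wtip (0.96 each), and for Angpt1 Gfm1 (0.98), Pja2 (0.97) and Tmem135 (0.97). No member of the 8 was among them.

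The relatives and partners of the 8 genes were read from 7 lists with 67 measured genes. None of the 67 had an adjusted p under 0.05 (limma), and 2 of them (2.99%) had an unadjusted p under 0.05, both lower in CAR KO, against 2.40% of all clusters. Both are of the caveolar list: Ehd2, an ATPase at the neck of caveolae, differed by -0.17 ± 0.06 (SE), and Pacsin2, a membrane-bending protein there, by -0.16 ± 0.07. Of that list 7 of 9 genes were lower in CAR KO, with a median of -0.15, and Cav1 itself, which is not in that count, differed by 0.13. The 11 COUP-TF relatives and cofactors had a median of -0.01, among them Zfpm1 (-0.08), a cofactor known as FOG1, and Rxra (-0.17), a retinoid receptor that pairs with nuclear receptors.

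The 10 Kv1 channels and beta subunits had a median of 0.0 (Kcnab2 -0.01, Kcna3 0.06), and the intervals of all 10 lay within 1.5-fold. The 15 START domain genes had a median of 0.03 (Stard7 -0.01, Stard8 0.10), and all 15 lay within 1.5-fold too, unlike Stard10. The 8 Dickkopf genes and Wnt co-receptors had a median of 0.0 (Lrp6 -0.04, Lrp5 -0.09). The 8 SERCA pumps and regulators had a median of 0.05, with the pump gene Atp2a2 at 0.02 and Casq2, the calcium store protein calsequestrin, at -0.35 (SE 0.20). The 6 angiopoietin and Tie genes had a median of -0.07, with the receptor gene Tek at -0.09 and Angpt2, a ligand that competes with Angpt1, at 0.21 (SE 0.11).

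The 11 marker lists, chosen with earlier results of these data known, held 102 measured genes, of which 0 had an adjusted p under 0.05 (limma). An unadjusted p under 0.05 was found for 8 (7.84%), against 2.40% of all clusters. Hand1 was higher in CAR KO by 0.17, and Myl2 (-0.15), Tbx18 (-0.31), Upk3b (-0.46), Upk1b (-0.22), Aldh1a2 (-0.57), Sema3d (-0.45) and Sox9 (-0.21) were lower. Upk3b, Upk1b, Aldh1a2 and Sema3d are 4 of the 9 genes of the epicardium and mesothelium list. All 9 were lower in CAR KO, with a median of -0.17, while 56.1% of all clusters were higher in CAR KO. The highest r of a member with that list's mean was 0.46 (Dkk3). On values centred within genotype it was 0.76 for Dkk3 (permutation p = 0.0336, adjusted 0.165), 0.69 for Sln, 0.56 for Cav1 and 0.51 for Kcna5, and none passed after adjustment. The atrial list had a median of 0.04 and the sinus venosus list 0.11, beside the members' median of 0.11.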

How the data were processed

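Total RNA of 5 WT and 5 CAR KO samples of E10.5 hearts was measured on Affymetrix Mouse Gene 1.0 ST arrays. The values used are the log2 signals deposited by the authors, 35556 rows for each of the 10 samples; the submitters' processing notes name MAS5, and further steps are not given in the sources used here. After 6612 control rows were left out, 28944 clusters remained, of which 21789 name 1 gene, 1621 name several genes and 5534 are unnamed. Each gene was taken from its brightest single-gene cluster. A gene was above background if its mean exceeded 6.503, the level that 95% of 1205 olfactory and vomeronasal receptor clusters stay under; 14688 genes did. The number of arrays limits precision; array medians were 7.653 to 7.729.

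CAR KO minus WT was fitted over all clusters without filter or trend by limma 3.58.1 (R 4.3.3; lmFit, then eBayes) and adjusted by Benjamini-Hochberg at a threshold of 0.05; single genes were also given 2-sided exact permutation tests over the samples, whose smallest p is 0.00794. Correlations were computed with numpy 2.4.6 and tested with 100000 permutations, adjusted over 28 pairs or 88 relations. Ranks and this adjustment came from scipy 1.17.1. Values centred within genotype were permuted within genotype, exactly. The fit was tested on simulated data. The members and gene lists were chosen with earlier results of these data known. Named were all members, per list the gene with the highest mean signal (a rule for naming, not a comparison of levels) and that with the smallest p, and per member the 3 genes most correlated on centred values; list genes at an unadjusted p under 0.05 and the extremes of list correlations were named after their values were seen.

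Other settings tried were median centring of arrays or quantile normalization, dropping dim clusters (lowest 40%) or clusters of several genes, a robust prior with trend, array weights, the t-test of the methods, the liver list as covariate, a block for sample number, 1 sample left out at a time, and a fit without the 3 liver-rich samples. The sinus venosus mean without Vsnl1 was added after the data were seen. Promoter windows came from RefSeq. Figures used matplotlib 3.10.9.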

Additional observations from a re-analysis of the deposited data

Results flagged for a closer look

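Of 40 groups of 5 samples examined for a sample far from the rest, 4 had one, where chance alone gives about 2. Among the 8 genes this was Dkk3, whose WT 5 lay below the other WT samples with a gap of 0.755 of the WT range. The mean of the atrial myocardium list had WT 5 lowest of WT, with a gap of 0.739 of the range. The mean of the cardiomyocyte list had CAR KO 5 lowest of CAR KO, with a gap of 0.847 of the range. The mean of the red blood cell list had WT 3 lowest of WT, with a gap of 0.746 of the range.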

How the results depend on the processing

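No setting tried brought any of the 8 genes under an adjusted p of 0.05, the lowest being 0.794 with array weights. The number with an interval within 1.5-fold was 3. It became 5 with array weights, and 4 with quantile normalization, the liver list as covariate or a block for sample number. Without dim clusters it was 2 of 7. With 1 sample left out it ran from 3 to 6 (5 without WT 5, 6 without CAR KO 2, 5 without CAR KO 3). Of 11 other alternatives 6 leave the fitted difference as it is and change only its test or the clusters tested. Under the other 5, 4 of 40 differences turned: array weights turned Nr2f2 (-0.15), Stard10 (-0.023) and Cav1 (-0.22), and a fit without the 3 liver-rich samples turned Cav1 (-0.037). With 1 sample left out 11 of 80 turned, and the differences ran from -0.28 to 0.15 for Nr2f1, -0.061 to 0.28 for Nr2f2, 0.10 to 0.31 for Kcna5, 0.04 to 0.31 for Stard10, -0.018 to 0.19 for Dkk3, -0.013 to 0.19 for Sln, 0.041 to 0.20 for Angpt1 and -0.11 to 0.31 for Cav1. The direction turned for Nr2f1 without CAR KO 1 or 4, for Nr2f2 without CAR KO 2, 3 or 5, for Dkk3 without WT 5 or CAR KO 2, for Sln without CAR KO 2, and for Cav1 without WT 5 or CAR KO 2 or 3. With 1 sample left out the median over the 8 genes ran from -0.008 to 0.217 and the difference of their mean from -0.004 to 0.198, and with array weights they were 0.018 and -0.053, against 0.11 and 0.105. Correlated pairs numbered 6 to 13 against 7, with 13 without CAR KO 5. Over all clusters, array weights called 2 instead of 1 and gave 1811 instead of 696 at an unadjusted p under 0.05, and the fit without the liver-rich samples gave 1214; with 1 sample left out that number ran from 411 to 1029. The causes were not tested. The filter on dim clusters dropped Sln, and taking the mean of all rows changed nothing because each gene has 1 row.

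The labels give both genotypes the numbers 1 to 5. Deviations of same-numbered samples correlated at 0.07 to 0.56 over all clusters and at 0.11 to 0.59 over genes above background, and the closest sample of the other genotype had the same number for 4 of 5 CAR KO and 3 of 5 WT samples over all clusters (4 and 2 over genes above background). The labels do not say that the numbers pair the samples, and over the clusters fitted not every pair was above 0.1, so the numbers were not taken as pairing, though this is a narrow decision. The permutations of the correlations do not take the numbers into account. With a replicate block the test called 1 cluster, while 1304 against 696 had an unadjusted p under 0.05, 4 of the 8 genes lay within 1.5-fold, and 0 of the 8 were called.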
